A study of Mus musculus with 8 samples.

Results

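The genes described here make, modify and export the ceramides and acylceramides of the epidermal permeability barrier. They were chosen as a list of 34 named genes of ceramide, acylceramide and barrier lipid synthesis and transport, each required to have at least 10 counts summed over the libraries. All 34 met that minimum, of 25321 gene identifiers that did so and 54232 listed in all. All 34 also passed the filter on low counts used for testing, which kept 19251 genes.

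RNA was sequenced from the scraped back-skin epidermis of female mice in an F1 background of C57Bl x 129, either wild type or REDD1 knockout. REDD1, encoded by Ddit4, is a stress- and glucocorticoid-induced inhibitor of mTORC1 signalling. The vehicle groups received 200 ul of acetone and held 2 libraries of each genotype. TPA is a phorbol ester that provokes inflammation and keratinocyte proliferation, and 4 ug was applied to 1 wild-type and 1 knockout sample. The FA+TPA groups, again 1 library of each genotype, received 2 ug of fluocinolone acetonide (FA), a synthetic glucocorticoid, 1 h before the same TPA dose. Skin was taken 24 h after TPA. The sources used here do not state the age of the mice, the knockout allele, or whether a library came from 1 animal or from pooled animals. P-values therefore measure the spread between these libraries, which may be technical.

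The label check held, since Ddit4 had 128 and 117 normalised CPM (counts scaled to the depth of the library) in wild-type vehicle skin against 18.8 and 18.6 in knockout vehicle skin. Its level was 64.2 against 4.44 CPM after TPA and 90.3 against 7.25 CPM after FA+TPA, wild type first. The labelled epidermis carried its defining keratins in every library, with Krt10 of suprabasal keratinocytes between 1903 and 9763 CPM, Lor between 438 and 1796 CPM, and Krt14 of basal keratinocytes between 2144 and 8013 CPM. The libraries held 16874233 to 22560098 counts. A floor of 3 counts equalled 0.133 to 0.178 CPM of the raw library total, before normalisation, for counting error only.

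Ceramides are built from serine and a fatty acyl-CoA. Serine palmitoyltransferase makes the long-chain base, ceramide synthases add a fatty acid, and desaturases or hydroxylases finish the base. In keratinocytes part of the ceramide carries ultra-long fatty acids that are hydroxylated at their far end and esterified with linoleate, which gives acylceramide. Acylceramide is stored as its glucosyl form in lamellar granules, secreted between the corneocytes, and oxidised by lipoxygenases so that it can be bound to the cornified envelope. Inherited loss of many of these genes causes ichthyosis.

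Levels between genes were compared per kilobase of annotated exon (RPKM), as the mean of the 4 vehicle libraries with their range. The highest was Elovl4, the elongase that makes ultra-long fatty acids, at 329 RPKM (197 to 447), followed by Elovl1, an elongase of saturated very long chains, at 170 RPKM (153 to 195). The ranges of those genes did not overlap, whereas the third, Fa2h, which adds an alpha-hydroxyl group to fatty acids, ranged from 45.6 to 168 RPKM around a mean of 103 and could not be placed below Elovl1 beyond its spread. Elovl6 (93.2 RPKM), the lamellar granule lipid transporter Abca12 (80.1 RPKM) and the lipoxygenase Alox12b (78.1 RPKM) came next, with overlapping ranges. At the other end stood the ceramide synthase Cers2 (2.95 RPKM), the sphingomyelin synthase Sgms2 (1.89 RPKM) and the desaturase and hydroxylase Degs2 (0.427 RPKM, at most 0.738). The range of Degs2 lay under that of every other member. The plot of levels in each library shows the members in CPM, a scale that serves to compare libraries within a gene.

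**Figure D1:**
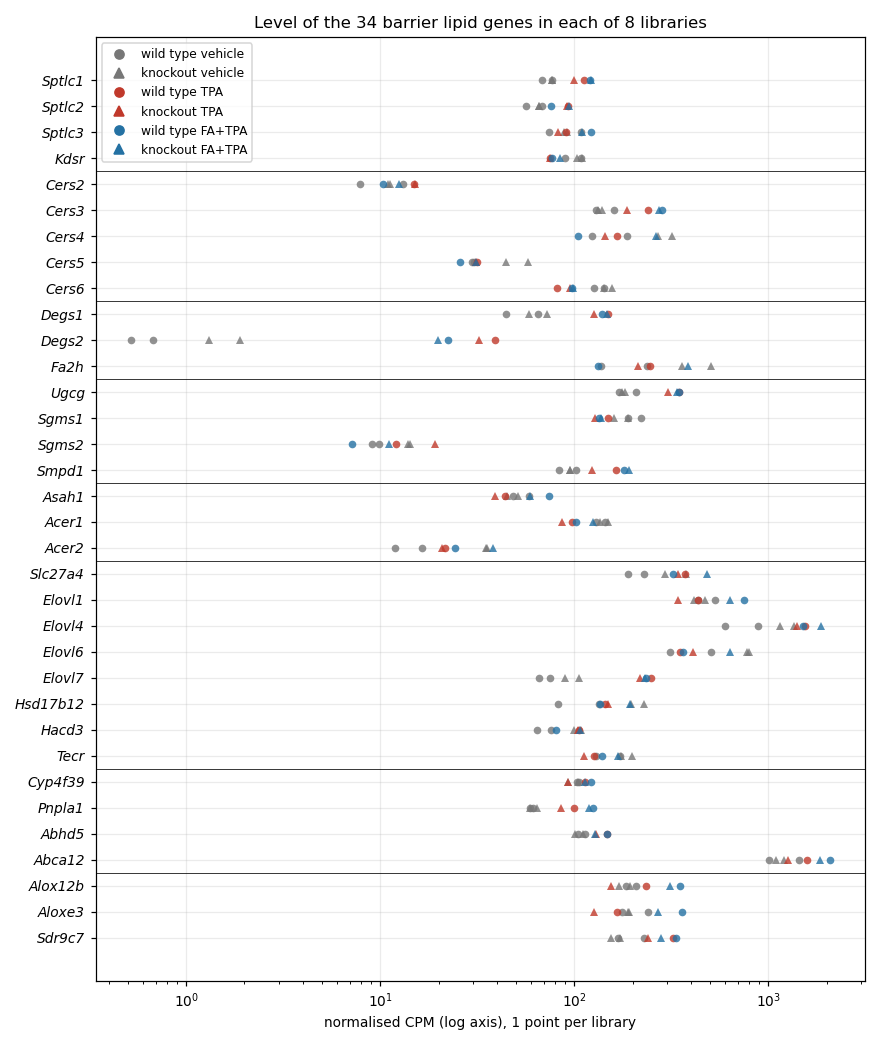
Normalised CPM (log axis) of the 34 genes, 1 point per library, with genes grouped by role between horizontal lines; circles are wild type, triangles knockout, and colours give the treatment. Degs2 had the lowest vehicle level, between 0.517 and 1.91 CPM, and lay between 19.9 and 39.1 CPM in the 4 treated libraries, while Fa2h, Cers4 and Acer2 separated by genotype within vehicle skin.

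The first question was how the genes responded to TPA. Over both genotypes, 14 of the 34 were higher than in vehicle skin, 8 were lower and 12 did not pass edgeR's quasi-likelihood test at a Benjamini-Hochberg adjusted p of 0.05. Among all tested genes 23.2% were higher and 22.8% lower, so the share of members lower was close to the background and the share higher stood above it. The median log2 fold change was 0.14 over the members and -0.03 over all tested genes. The rises included Degs2, Elovl7, Degs1 and Ugcg, and the falls Cers6, Acer1 and Elovl6. The additive fit behind these values takes 1 treated library from each genotype, and a genotype-specific response enters its spread.

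In long-chain base synthesis, 2 of 4 genes rose. Sptlc1, the shared subunit of serine palmitoyltransferase, had 68.0 and 76.7 CPM in wild-type vehicle, 77.3 and 77.1 CPM in knockout vehicle, and 113 and 100 CPM in the wild-type and knockout TPA libraries. Both TPA libraries lay above all 4 vehicle libraries, and the log2 fold change was 0.51 ± 0.09 (SE), with an adjusted p of 0.000891. Sptlc2, a catalytic subunit, rose by 0.53 ± 0.10 (adjusted p = 0.00147), from 56.2 to 68.2 CPM in vehicle to 92.7 and 92.0 CPM. The alternative catalytic subunit Sptlc3 did not pass the test, at -0.07 ± 0.13. Kdsr, the reductase of the next step, fell by 0.46 on the log2 scale, from 90.0 to 110 CPM in vehicle to 74.6 and 74.7 CPM (adjusted p = 0.00239). Without the knockout TPA library the adjusted p of Kdsr was 0.0636.

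The 5 ceramide synthases, which differ in the chain length of the fatty acid they attach, split. Cers3, the enzyme for ultra-long chains and the member of this family that acylceramide depends on, had 129 and 161 CPM in wild-type vehicle and 139 and 132 CPM in knockout vehicle. It reached 241 CPM in wild-type TPA and 187 CPM in knockout TPA, above every vehicle library, a log2 rise of 0.60 ± 0.10 (adjusted p = 0.000855). Cers6, which prefers shorter chains, moved the other way, with 127, 142, 156 and 143 CPM in vehicle against 81.8 CPM in wild-type TPA and 95.0 CPM in knockout TPA. Both TPA libraries were below every vehicle library, and the fall of 0.68 on the log2 scale had an adjusted p of 0.000133. Cers2 (0.47 ± 0.18), Cers4 (-0.41 ± 0.27) and Cers5 (-0.33 ± 0.17) did not pass.

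The largest difference of any member after TPA belonged to Degs2, which both desaturates dihydroceramide and hydroxylates it to phytoceramide. It had 0.678 and 0.517 CPM in wild-type vehicle and 1.31 and 1.91 CPM in knockout vehicle, from 12, 10, 28 and 42 counts. After TPA it had 39.1 CPM in wild type (634 counts) and 32.3 CPM in knockout (720 counts). The 2 TPA libraries stood far above all vehicle libraries, with a log2 fold change of 4.98 ± 0.28 and an adjusted p of 4.65e-07. Part of the exons of Degs2, 10.8% of their length, is shared with Evl on the opposite strand, and with the strand setting not given reads from that stretch cannot be assigned. Degs1, the general dihydroceramide desaturase, had 44.7 and 65.2 CPM in wild-type vehicle, 58.7 and 72.8 CPM in knockout vehicle, and 150 and 126 CPM after TPA in wild type and knockout. The groups did not overlap, and the log2 rise was 1.20 ± 0.15 (adjusted p = 0.000111). Fa2h did not pass the test, at -0.22 ± 0.32, and its vehicle libraries, from 137 to 505 CPM, enclosed both TPA libraries at 245 and 214 CPM.

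The promoter of Degs2 is shown because this gene had the largest response to TPA. The window runs from 250 bases before to 50 bases after the start site, at chr12:108702257-108702556 on the minus strand of GRCm38.p6, as RefSeq gives it, 5′ to 3′, with capitals marking matches on either strand to the GC box GGGCGG.
Degs2: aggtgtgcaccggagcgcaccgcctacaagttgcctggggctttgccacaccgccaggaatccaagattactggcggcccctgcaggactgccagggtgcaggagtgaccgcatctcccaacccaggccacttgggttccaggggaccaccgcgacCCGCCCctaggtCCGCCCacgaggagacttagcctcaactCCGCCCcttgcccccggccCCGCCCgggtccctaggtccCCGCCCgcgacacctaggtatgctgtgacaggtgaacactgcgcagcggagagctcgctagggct
It holds 5 GC boxes and no match to the AP-1 site TGANTCA or to TATAAA. Windows were found for 31 of the 34 genes, 41 windows in all, and 3 of them, from Sgms1 and Sgms2, held TGANTCA, against 7.81% of all 32851 windows of that length. GC boxes were in 25 of the 41 windows, against 35.7% of all windows, and TATAAA in 2, against 13.6%. These are letter matches on both strands in short windows, and no binding was measured.

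Among the genes that add or remove the head group, all 4 changed. Ugcg, glucosylceramide synthase, had 170 and 209 CPM in wild-type vehicle and 182 and 177 CPM in knockout vehicle, against 347 CPM in wild-type TPA and 306 CPM in knockout TPA. The rise of 0.82 ± 0.09 on the log2 scale had an adjusted p of 5.03e-05, without overlap of the groups. Smpd1, the acid sphingomyelinase that frees ceramide from sphingomyelin, rose by 0.61 ± 0.12 (adjusted p = 0.00162), from 83.8 to 102 CPM in vehicle to 165 and 124 CPM. The sphingomyelin synthases went apart. Sgms1 fell by 0.46 on the log2 scale (adjusted p = 0.00486), from 161 to 220 CPM to 149 and 128 CPM, and Sgms2 rose by 0.40 ± 0.11 (adjusted p = 0.0149). Sgms2 overlapped between the groups, with 9.04 to 14.3 CPM in vehicle and 12.1 and 19.1 CPM after TPA. Without the wild-type TPA library the adjusted p was 0.0611 for Smpd1 and 0.0698 for Sgms2, and without the knockout TPA library it was 0.0743 for Sgms1 and 0.114 for Sgms2.

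The ceramidases break ceramide down to a long-chain base and a fatty acid. Acer1, the alkaline ceramidase of differentiated keratinocytes, fell by 0.60 on the log2 scale (adjusted p = 0.00112), from 129, 145, 149 and 137 CPM in vehicle to 98.0 and 86.5 CPM in wild-type and knockout TPA skin, both below every vehicle library. Its exons share 14.1% of their length with a gene on the opposite strand. Asah1, the acid ceramidase of lysosomes, fell by 0.29 (adjusted p = 0.0442), from 44.9 to 58.7 CPM to 43.9 and 39.2 CPM. That call sat close to the threshold, and it was lost without each of 6 libraries in turn, namely wild-type vehicle 2, knockout vehicle 1 and the 4 treated libraries, with adjusted p between 0.0697 and 0.224. With all libraries kept, the call of Asah1 was also lost with RLE scaling (adjusted p = 0.0533), DESeq2 (0.084), limma-voom (0.0517) and 1 mean per group. Acer2 did not pass, at -0.08 ± 0.25.

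Of the 8 genes that activate and elongate fatty acids, 3 rose and 2 fell. Elovl7, an elongase of saturated long chains, had 65.6 and 75.3 CPM in wild-type vehicle, 89.5 and 106 CPM in knockout vehicle, and 248 and 220 CPM in wild-type and knockout TPA skin. No vehicle library reached the TPA level, and the log2 rise was 1.49 ± 0.14 (adjusted p = 1.18e-05). Elovl4 had 596 and 881 CPM in wild-type vehicle and 1152 and 1354 CPM in knockout vehicle, against 1539 and 1404 CPM after TPA, a rise of 0.63 ± 0.20 (adjusted p = 0.0229). The wild-type levels were the lower ones in vehicle, and without the wild-type TPA library the value was 0.24 with an adjusted p of 0.449, against 1.02 without the knockout TPA library. Slc27a4, which takes up and activates fatty acids, was not called with limma-voom (adjusted p = 0.0533) or a minimum count of 50 (0.0564). In the main fit it was called higher, at 0.46 ± 0.17 (adjusted p = 0.0455). That value was 0.05 without the wild-type TPA library and 0.85 without the knockout TPA library, and leaving out wild-type vehicle 1 or 2, knockout vehicle 1, wild-type TPA or either FA+TPA library ended the call, with adjusted p from 0.0635 to 0.84.

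Elovl6, which extends palmitate, fell by 0.56 on the log2 scale (adjusted p = 0.0364), with 312 and 508 CPM in wild-type vehicle, 782 and 795 CPM in knockout vehicle, and 353 and 411 CPM after TPA. DESeq2 on all libraries did not call this fall (adjusted p = 0.115). The TPA libraries lay inside the wild-type vehicle range and below the knockout vehicle range. The value was -0.20 without the knockout TPA library and -0.91 without the wild-type TPA library, and the call was lost without wild-type vehicle 2, either knockout vehicle library, knockout TPA or either FA+TPA library, with adjusted p from 0.0615 to 0.521. Tecr, the reductase that closes each elongation cycle, fell by 0.49 (adjusted p = 0.0155), from 129 to 198 CPM to 126 and 112 CPM, and without the knockout TPA library its value was -0.23 with an adjusted p of 0.336. Elovl1 (-0.26 ± 0.11) did not pass. Neither did Hsd17b12 (-0.04 ± 0.21), the ketoacyl reductase of the same cycle, nor Hacd3 (0.31 ± 0.12), a dehydratase of it.

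Of the 4 genes of acylceramide formation and transport, 2 rose. Pnpla1, the transacylase that places linoleate on the omega-hydroxyl group, had 59.4 and 61.0 CPM in wild-type vehicle and 64.2 and 58.9 CPM in knockout vehicle. It had 99.3 CPM in wild-type TPA and 85.6 CPM in knockout TPA, above the narrow vehicle range, with a log2 rise of 0.60 ± 0.09 (adjusted p = 0.00023). Abhd5, its cofactor, rose by 0.36 ± 0.09 (adjusted p = 0.00613), from 102 to 114 CPM to 148 and 130 CPM. Without the wild-type TPA library the adjusted p of Abhd5 was 0.0916. Both have exon stretches shared with an antisense gene, 13.3% for Pnpla1 and 16.0% for Abhd5. Abca12 (0.27 ± 0.13) and Cyp4f39 (0.02 ± 0.09), the omega-hydroxylase of ultra-long fatty acids, did not pass.

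The genes that oxidise the linoleate of acylceramide differed. Sdr9c7, the dehydrogenase of that chain, had 168 and 230 CPM in wild-type vehicle, 173 and 156 CPM in knockout vehicle, and 323 and 240 CPM in wild-type and knockout TPA skin. It rose by 0.63 ± 0.12 (adjusted p = 0.00142) without overlap. Aloxe3, the lipoxygenase that acts after Alox12b, fell by 0.47 on the log2 scale (adjusted p = 0.0118), from 241, 177, 190 and 192 CPM in vehicle to 166 and 126 CPM, although without the knockout TPA library the adjusted p was 0.183. Alox12b did not pass, at 0.02 ± 0.12.

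By order alone, 13 of 34 members were above and 7 were below every vehicle library in both TPA libraries, against 28.0% and 29.0% of all tested genes, so the share below was under the background. Without the wild-type TPA library, Cers4 (-1.11), Cers5 (-0.65) and Fa2h (-1.07) had larger falls than with all libraries. The rises of Smpd1 (0.37), Slc27a4 (0.05), Elovl4 (0.24) and Abhd5 (0.31) were smaller there. Without the knockout TPA library, the falls of Kdsr (-0.37), Sgms1 (-0.38), Elovl6 (-0.20), Tecr (-0.23) and Aloxe3 (-0.34) were smaller, and the rise of Hacd3 (0.60) was larger. The fall of Asah1 was slightly smaller in both fits (-0.270 and -0.275). Scaling by library size alone gave a median of -0.25 over all genes in place of -0.03 and split the members 10 higher and 11 lower, with 2846 genes higher and 6432 lower over all genes in place of 4472 and 4380. On that scale Sgms2 (0.18), Slc27a4 (0.22), Elovl4 (0.39) and Abhd5 (0.13) were no longer called. A single long noncoding transcript took 8.34% to 13.8% of counts in vehicle and 16.8% to 24.2% in treated libraries.

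Cell type markers moved with TPA as well. The 10 suprabasal markers summed to between 15951 and 18810 CPM in the vehicle libraries and to 13376 and 8876 CPM in the wild-type and knockout TPA libraries. The members of that list went both ways, with 3 called higher, 4 lower and a median log2 fold change of 0.28, so the sum and the median differed in sign. Krt10 had 9763, 9715, 8443 and 7910 CPM in vehicle and 3187 and 1903 CPM after TPA. The 5 Langerhans cell markers were all lower, summing to 765 to 883 CPM in vehicle and 437 and 478 CPM after TPA. Neutrophil markers, 6 listed and 3 tested, summed to 1.36 to 2.79 CPM in vehicle and reached 47.5 and 75.7 CPM. None of these lists had a marker at 0 in all libraries. In bulk RNA fewer cells of a type and less RNA per cell cannot be told apart, and the part of these markers in the TPA result was not tested.

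**Figure D2:**
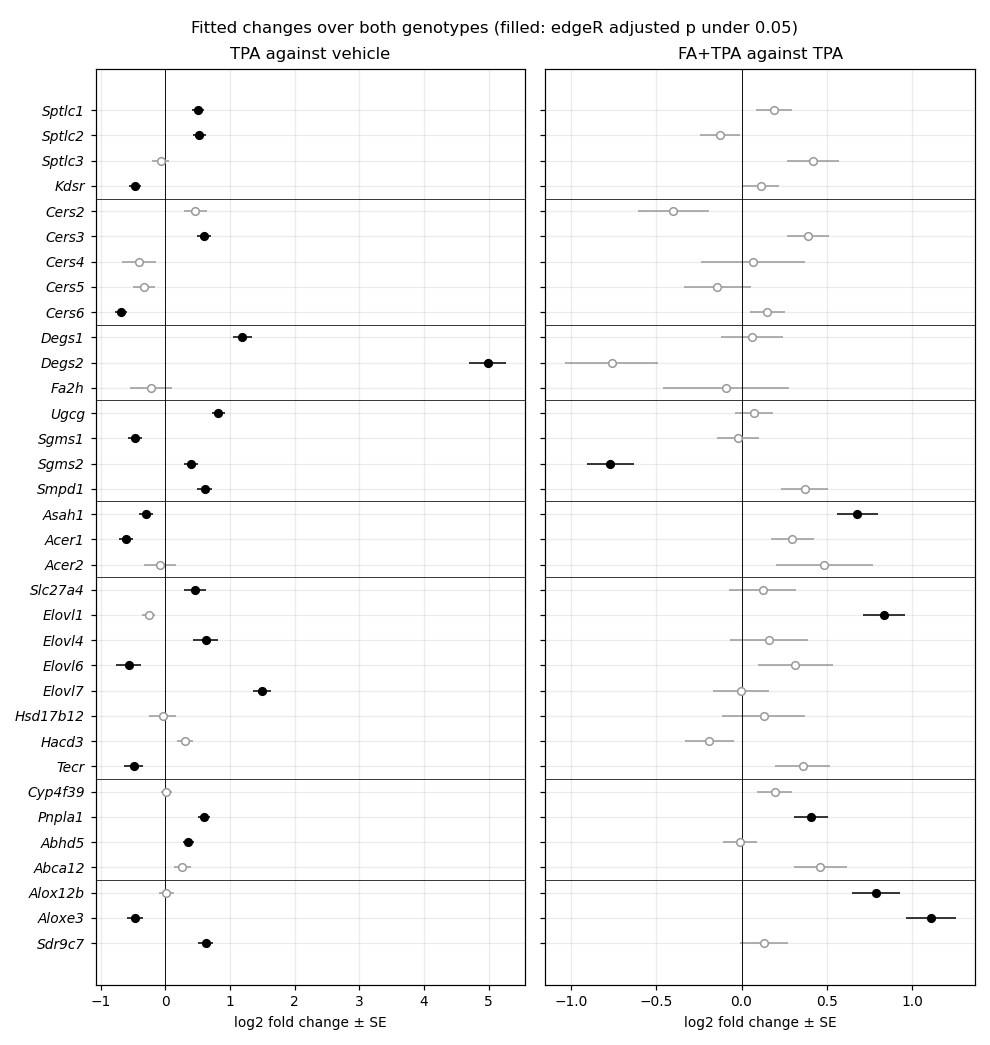
Fitted log2 fold changes ± SE of the 34 genes over both genotypes, TPA against vehicle on the left and FA+TPA against TPA on the right (axes differ); filled points passed edgeR's adjusted p of 0.05. Degs2 stands alone at 4.98 on the left, and on the right Aloxe3 (1.11), Elovl1 (0.83) and Alox12b (0.79) lie to the right of 0 while Sgms2 lies at -0.77.

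The second question was what the glucocorticoid did on top of TPA. Against TPA alone, 5 of 34 genes were higher with FA+TPA, 1 was lower and 28 did not pass. Among all tested genes 5.71% were higher and 4.31% lower, so the share of members higher was above the background and rested on 5 genes. The median log2 fold change was 0.14 over the members and 0.01 over all genes. The genes called higher were the lipoxygenases Aloxe3 and Alox12b, the elongase Elovl1, the acid ceramidase Asah1 and the transacylase Pnpla1, and the gene called lower was Sgms2.

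Aloxe3 had 166 CPM in wild-type TPA and 126 CPM in knockout TPA against 360 and 270 CPM with FA+TPA. Both FA+TPA libraries were above all other libraries, including vehicle, and the log2 difference of 1.11 ± 0.15 had an adjusted p of 0.00108. Alox12b went from 235 and 155 CPM to 353 and 313 CPM, a rise of 0.79 ± 0.14 (adjusted p = 0.00517). Elovl1 had 435 and 345 CPM after TPA and 753 and 633 CPM with FA, and rose by 0.83 ± 0.12 (adjusted p = 0.00194). For each of these genes the FA+TPA libraries exceeded every vehicle library and every TPA library, in both genotypes. The exons of Elovl1 share 1.94% of their length with Cdc20 on the opposite strand.

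Asah1 had 43.9 and 39.2 CPM after TPA and 74.0 and 59.4 CPM after FA+TPA, wild type first, and rose by 0.68 ± 0.12 (adjusted p = 0.00568). Pnpla1 went from 99.3 and 85.6 CPM to 125 and 120 CPM, a rise of 0.41 ± 0.10 (adjusted p = 0.0275). Sgms2 had 12.1 and 19.1 CPM after TPA and 7.19 and 11.1 CPM with FA, so that within each genotype the level with FA was lower, and it fell by 0.77 on the log2 scale (adjusted p = 0.00568). The 2 groups of Sgms2 did not overlap.

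Only Elovl1 and Aloxe3 were called in every alternative that was run. Leaving out 1 library ended the call of Alox12b without knockout TPA (0.0699), wild-type FA+TPA (0.0583) or knockout FA+TPA (0.0731), where the values are adjusted p. It ended that of Asah1 without wild-type TPA (0.0525) or wild-type FA+TPA (0.103), and that of Sgms2 without wild-type FA+TPA (0.0607) or knockout FA+TPA (0.06). Pnpla1 lost its call without any 1 of the 4 treated libraries, with adjusted p from 0.0542 to 0.34, its value being 0.26 without knockout TPA. With all libraries kept, Pnpla1 was also not called in the fit with 1 mean per group. Over all alternatives the log2 difference ranged from 0.99 to 1.20 for Aloxe3, 0.71 to 0.92 for Elovl1 and 0.52 to 1.03 for Alox12b. It ranged from 0.57 to 0.74 for Asah1, 0.26 to 0.51 for Pnpla1 and -0.80 to -0.76 for Sgms2.

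Outside the test, 15 of 34 members were above both TPA libraries in both FA+TPA libraries and 3 were below, against 27.4% and 25.4% of all genes. These counts include all the called genes, and several genes that did not pass were ordered in the same way. Abca12 had 1594 and 1269 CPM after TPA and 2086 and 1846 CPM with FA (0.46 ± 0.16, adjusted p = 0.0942). Cers3 had 241 and 187 CPM against 285 and 273 CPM (0.39 ± 0.12, adjusted p = 0.0774). Degs2 had 39.1 and 32.3 CPM against 22.3 and 19.9 CPM, a difference of -0.76 ± 0.27 (adjusted p = 0.115). Ugcg (0.07 ± 0.11) and Degs1 (0.06 ± 0.18), both raised by TPA, had differences within their error of 0.

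**Figure D3:**
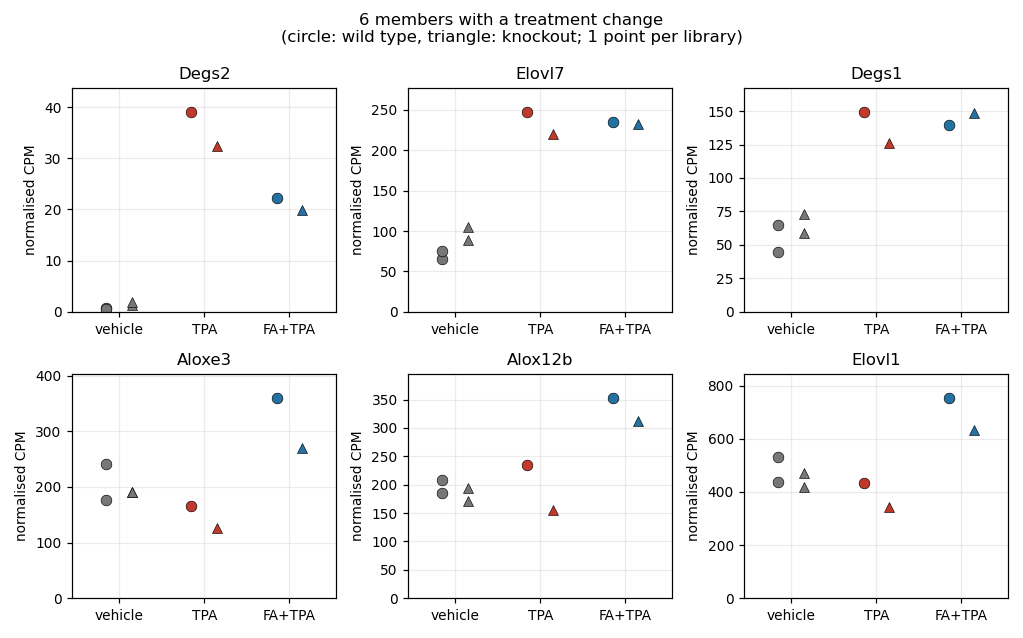
Normalised CPM of 6 genes by treatment, 1 point per library, circles for wild type and triangles for knockout, each axis from 0. In the upper row (Degs2, Elovl7, Degs1) the 4 treated libraries lie above the 4 vehicle libraries; in the lower row (Aloxe3, Alox12b, Elovl1) the FA+TPA libraries lie above all others.

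Promoters of the genes that were higher with FA are shown for the 3 that RefSeq windows cover beside Asah1 and Aloxe3, for which none was found. The windows are chr11:69156822-69157121 for Alox12b, chr4:118427843-118428142 for the first Elovl1 start site and chr17:28858161-28858460 for Pnpla1, all on the plus strand of GRCm38.p6, 5′ to 3′, with GC boxes (GGGCGG on either strand) in capitals.
Alox12b: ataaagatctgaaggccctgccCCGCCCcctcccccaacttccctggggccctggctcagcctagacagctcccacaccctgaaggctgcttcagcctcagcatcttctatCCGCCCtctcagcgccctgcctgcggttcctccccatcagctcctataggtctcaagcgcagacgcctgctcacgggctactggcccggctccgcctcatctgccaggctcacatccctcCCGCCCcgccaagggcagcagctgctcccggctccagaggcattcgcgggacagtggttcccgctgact
Elovl1: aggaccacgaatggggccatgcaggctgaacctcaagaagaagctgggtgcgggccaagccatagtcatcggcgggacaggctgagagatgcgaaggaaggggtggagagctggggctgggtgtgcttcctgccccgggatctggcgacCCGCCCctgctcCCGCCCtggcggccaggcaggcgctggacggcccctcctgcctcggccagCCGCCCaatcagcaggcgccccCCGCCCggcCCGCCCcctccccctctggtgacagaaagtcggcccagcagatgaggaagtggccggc
Pnpla1: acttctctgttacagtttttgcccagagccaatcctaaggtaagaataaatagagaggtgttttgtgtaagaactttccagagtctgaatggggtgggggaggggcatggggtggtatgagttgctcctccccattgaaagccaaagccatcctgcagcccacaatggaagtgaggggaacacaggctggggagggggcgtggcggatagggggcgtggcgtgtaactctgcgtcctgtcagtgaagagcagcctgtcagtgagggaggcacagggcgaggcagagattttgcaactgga
Alox12b holds 3 GC boxes, this Elovl1 window 5 and Pnpla1 none. None of the 3 holds AGAACA, the half-site of the glucocorticoid response element, which was in the windows of 6 members (Acer1, Elovl4, Hacd3, Kdsr, Sgms2 and Tecr) and in 19.0% of all windows, counting both strands. The full palindromic element, that half-site and its inverted copy 3 bases apart, was in no member window and in 0.00913% of all windows. A window without a match says only that these letters are not in it.

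Marker sums of several cell types differed between the same libraries. That of the suprabasal markers was 26401 and 22796 CPM with FA+TPA, wild type first, against 13376 and 8876 CPM with TPA and 15951 to 18810 CPM in vehicle, and 4 of the 10 were called higher against TPA. Krt10 had 3187 and 1903 CPM after TPA and 9695 and 8680 CPM with FA, and Lor had 718 and 438 CPM against 1796 and 1413 CPM. Of the 8 basal keratinocyte markers 5 were called higher and 0 lower against TPA, with sums of 14950 and 14089 CPM after TPA and 16694 and 15484 CPM with FA. The skeletal muscle markers summed to 23.7 and 34.8 CPM after TPA and 138 and 116 CPM with FA, and 0 of 7 were called by edgeR, with 4 at an unadjusted p under 0.05. The neutrophil marker sum was 16.1 and 19.98 CPM with FA, below the TPA libraries. The part of these shifts in the differences of Aloxe3, Alox12b, Elovl1, Asah1 and Pnpla1 was not tested.

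Set against vehicle, FA+TPA skin had 18 of 34 members higher, 4 lower and 12 that did not pass, where 17.4% of all genes were higher and 14.2% lower. By order, both FA+TPA libraries were above every vehicle library for 19 members and below for 4, against 24.7% and 22.9% of all genes. This comparison shares its FA+TPA libraries with the comparison above and its vehicle libraries with the first, so its values are given beside them and add no separate support. All 3 genes of linoleate oxidation were higher than in vehicle, with Alox12b at 0.81 ± 0.12 (adjusted p = 0.000479), Sdr9c7 at 0.76 ± 0.12 (0.000751) and Aloxe3 at 0.64 ± 0.12 (0.00254). Pnpla1 stood at 1.00 ± 0.08 (adjusted p = 1.58e-05), Cers3 at 0.99 ± 0.10 (6.53e-05), Smpd1 at 0.98 ± 0.12 (0.00014) and Abca12 at 0.73 ± 0.13 (0.00189). Degs2 was at 4.22 ± 0.29, against 4.98 ± 0.28 for TPA alone. The 4 lower genes were Cers6 (-0.53), Sgms1 (-0.48), Sgms2 (-0.37) and Kdsr (-0.35), with adjusted p of 0.00123, 0.00633, 0.0409 and 0.0171.

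Some of these calls against vehicle rested on 1 library. Without the wild-type FA+TPA library Aloxe3 (adjusted p = 0.0816), Sgms1 (0.145) and Kdsr (0.172) were not called, and without the knockout FA+TPA library Kdsr (0.109) and Sptlc2 (0.245) were not. Asah1 (0.39), Slc27a4 (0.58), Elovl4 (0.79) and Abhd5 (0.35) were called higher with all libraries and lost that call without either FA+TPA library, with adjusted p from 0.0586 to 0.226. Slc27a4 also lost it without wild-type vehicle 2 (0.0521) or knockout vehicle 1 (0.0533). Sgms2 lost its call in 7 of the 8 fits that left out a library, all but that without wild-type vehicle 1, with adjusted p from 0.0541 to 0.208. With all libraries kept, Sgms2 was also not called with DESeq2, limma-voom, no low-count filter or 1 mean per group. Over all alternatives the log2 value ranged from -0.75 to -0.46 for Cers6 and from -0.70 to -0.35 for Sgms1. It ranged from -0.59 to -0.35 for Sgms2 and from -0.57 to -0.31 for Kdsr. Scaling by library size alone gave 14 members higher and 6 lower, with 1953 genes higher and 4982 lower over all genes in place of 3347 and 2729.

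The third question was the effect of REDD1 loss. In vehicle skin, the only condition with 2 libraries of each genotype, 6 of 34 members were higher in knockout and 0 were lower, where 1.44% of all tested genes were higher and 0.727% lower. At an unadjusted p under 0.05 there were 12 members, and 11.5% of all genes. The 6 genes were Acer2, Fa2h, Hsd17b12, Elovl6, Cers4 and Cers5, and they come from different steps of the pathway. None of the genes of long-chain base synthesis, acylceramide formation and transport, or linoleate oxidation passed. The median over the members was 0.09, against -0.02 over all genes.

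Acer2, an alkaline ceramidase of the Golgi, had 16.5 and 11.9 CPM in wild type and 35.6 and 35.0 CPM in knockout, a mean of 14.2 ± 3.22 against 35.3 ± 0.417 (SD, n = 2 each). The log2 difference was 1.32 ± 0.17 with an adjusted p of 0.00451. Fa2h had 137 and 237 CPM in wild type and 359 and 505 CPM in knockout, a difference of 1.21 ± 0.24 (adjusted p = 0.0323). Neither gene overlapped between genotypes in vehicle skin, although the 2 libraries of each genotype were far apart for Fa2h.

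Cers4, a ceramide synthase for long to very long chains, had 123 and 188 CPM in wild type and 271 and 321 CPM in knockout (0.92 ± 0.19, adjusted p = 0.0348). Cers5 had 30.4 and 29.6 CPM against 44.5 and 58.1 CPM (0.77 ± 0.15, adjusted p = 0.0307). Elovl6 had 312 and 508 CPM against 782 and 795 CPM (0.94 ± 0.20, adjusted p = 0.0415), and Hsd17b12 had 82.9 and 134 CPM against 197 and 228 CPM (0.97 ± 0.20, adjusted p = 0.036). In all of them the lower knockout library exceeded the higher wild-type library, and for each apart from Cers5 wild-type vehicle 2 exceeded wild-type vehicle 1. Cers4 shares 8.97% of its exon length with genes on the opposite strand.

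Genes just outside the threshold included Degs2 (1.43 ± 0.33, adjusted p = 0.0561), Slc27a4 (0.69 ± 0.16, 0.0562), Hacd3 (0.57 ± 0.13, 0.0562) and Elovl4 (0.76 ± 0.19, 0.0819). By order alone, 15 of 34 members were above and 1 was below in both knockout vehicle libraries, against 19.7% and 20.1% of all tested genes. The 1 below was Sgms1, with 190 and 220 CPM in wild type and 189 and 161 CPM in knockout. The genes of acylceramide formation and transport stayed within small differences, from -0.09 for Abca12 to 0.03 for Pnpla1.

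These genotype calls were sensitive to the fit. Of the 6, Acer2 was called in every alternative run. With a minimum count of 50 the other 5 had adjusted p from 0.0542 to 0.076, and with DESeq2 Fa2h (0.271), Elovl6 (0.22) and Hsd17b12 (0.222) were not called. Without knockout vehicle 2, Cers5 had a value of 0.57 and an adjusted p of 0.253. Over all alternatives the log2 difference ranged from 1.10 to 1.56 for Acer2, 0.86 to 1.66 for Fa2h and 0.66 to 1.36 for Hsd17b12. It ranged from 0.63 to 1.34 for Elovl6, 0.65 to 1.265 for Cers4 and 0.57 to 0.95 for Cers5. A fit of the vehicle libraries alone with the replicate number as a replicate block called 10 members higher. That fit called 597 of 19251 genes higher, against 278 in the main fit.

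Sebaceous gland markers differed in the same direction. The sum of 10 sebocyte markers was 1686 and 2635 CPM in wild-type vehicle and 4446 and 5718 CPM in knockout vehicle, and 8 of the 10 were called higher in knockout. It was 3005 and 3425 CPM in wild-type and knockout TPA skin and 1298 and 3358 CPM in wild-type and knockout FA+TPA skin. No sebocyte marker was at 0 in all libraries. Skeletal muscle markers also differed in vehicle skin, with the sum of 7 at 21.9 and 5.48 CPM in wild type and 193 and 73.3 CPM in knockout, and 5 called higher. The part of either marker set in the differences of Acer2, Fa2h, Hsd17b12, Elovl6, Cers4 and Cers5 was not tested.

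**Figure D4:**
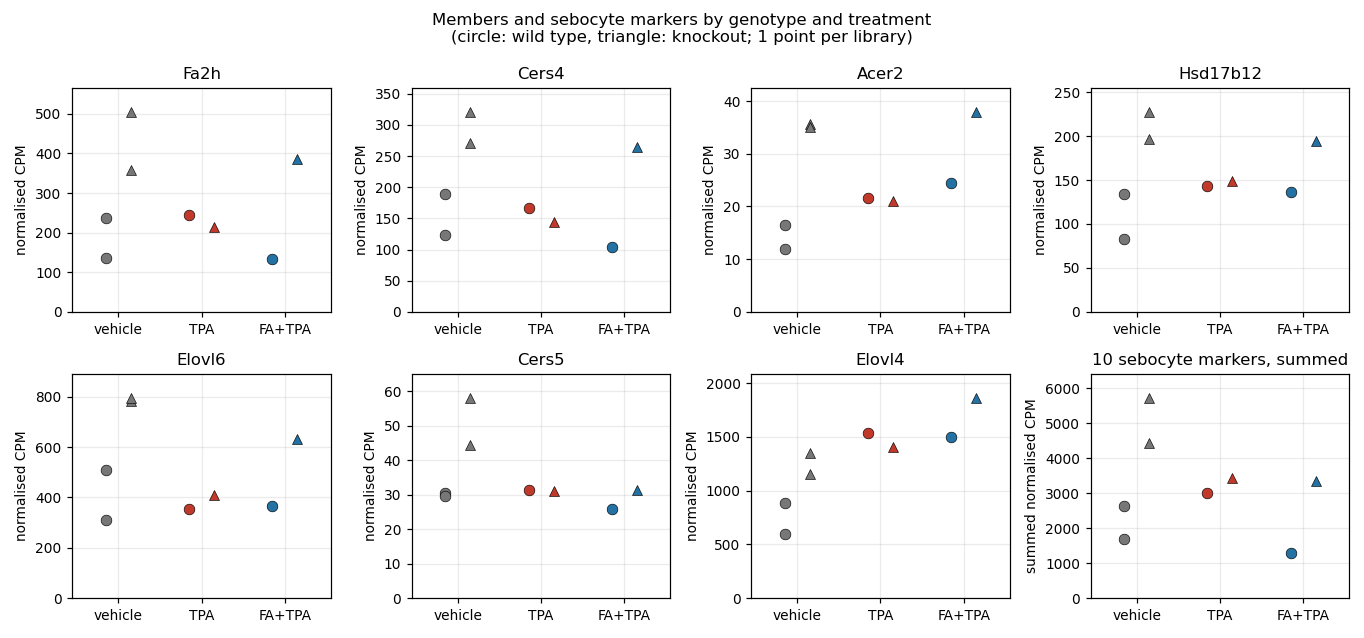
Normalised CPM by treatment and genotype for Fa2h, Cers4, Acer2, Hsd17b12, Elovl6, Cers5 and Elovl4 and, lower right, for the summed 10 sebocyte markers, 1 point per library, circles for wild type and triangles for knockout, each axis from 0. In vehicle skin both knockout libraries lie above both wild-type libraries in all 8 panels; after TPA the ratio of knockout to wild type for the 7 genes lies between 0.862 and 1.16, and after FA+TPA the knockout library is the higher in each panel.

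After TPA the same genes showed little separation by genotype. The ratio of knockout to wild type was 0.862 for Cers4, 0.876 for Fa2h, 0.972 for Acer2, 0.988 for Cers5, 1.04 for Hsd17b12 and 1.16 for Elovl6 in the single pair of TPA libraries. In the vehicle means it was 1.90 for Cers4, 2.31 for Fa2h, 2.49 for Acer2, 1.71 for Cers5, 1.96 for Hsd17b12 and 1.92 for Elovl6. After FA+TPA it was 2.54 for Cers4 and 2.91 for Fa2h, above the vehicle ratio, and 1.56 for Acer2, 1.21 for Cers5, 1.43 for Hsd17b12 and 1.73 for Elovl6, below it. Fa2h thus had 245 and 214 CPM after TPA but 132 and 385 CPM after FA+TPA, wild type first, and Cers4 had 167 and 144 CPM followed by 105 and 265 CPM.

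The difference between genotypes in the response to TPA was tested as an interaction, and 0 of 34 members passed, with 0.00519% of all genes called lower and 0% called higher. The count was also 0 with DESeq2 and with limma-voom, and 10 members had an unadjusted p under 0.05 (5.27% of all genes did). The values were negative for all 10, from -0.57 ± 0.22 for Hacd3 to -1.70 ± 0.40 for Degs2 (adjusted p = 0.43), with Acer2 at -1.36 ± 0.29 (0.365), Fa2h at -1.40 ± 0.41 (0.576) and Cers4 at -1.14 ± 0.33 (0.541). Because wild-type and knockout vehicle libraries enter both this test and the vehicle comparison, a high knockout vehicle level lowers the interaction, and the 2 results are not separate. Over all alternatives the interaction ranged from -1.94 to -1.41 for Degs2 and from -1.605 to -1.17 for Acer2. It ranged from -1.875 to -1.05 for Fa2h and from -1.50 to -0.86 for Cers4. Leaving out 1 vehicle library made some members called, all lower, and more genes were called over all tested genes as well. The spread then rested on the other vehicle pair alone, and the lone library was assumed to vary like it.

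For the interaction of genotype with FA, 0 members passed, as with DESeq2 and limma-voom, and 0% of all genes did. At an unadjusted p under 0.05 there were 2, Fa2h (1.73 ± 0.48, adjusted p = 1) and Cers4 (1.56 ± 0.38, adjusted p = 0.943), against 3.18% of all genes. Both were called when any 1 of the 4 vehicle libraries was left out, and other genes were called in those fits as well. The spread then rested on the remaining vehicle pair alone and not on treated skin, so these calls cannot decide the question. Over all alternatives the log2 value ranged from 1.53 to 1.76 for Fa2h and from 1.36 to 1.58 for Cers4. Each value compares 4 single libraries, and the levels behind it were those given above. The summed sebocyte markers had 3005 and 3425 CPM after TPA and 1298 and 3358 CPM after FA+TPA in those 4 libraries, wild type first. The part of these markers in the values of Fa2h and Cers4 was not tested.

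Over all treatments, 2 members were higher in knockout and 0 were lower, where 1.98% of genes were higher and 1.60% lower, and 15 members had an unadjusted p under 0.05, as did 16.0% of genes. Sgms2 was higher by 0.61 ± 0.10 (adjusted p = 0.00739). Its levels, wild type before knockout, were 9.04 and 9.83 against 14.3 and 13.9 CPM in vehicle, 12.1 against 19.1 CPM after TPA, and 7.19 against 11.1 CPM after FA+TPA. The knockout library was thus the higher under each treatment, with ratios of 1.49, 1.58 and 1.54. Elovl6 was higher by 0.73 ± 0.16 (adjusted p = 0.0323), with ratios of 1.92, 1.16 and 1.73. DESeq2 called 4 members higher and 0 lower, with 406 genes higher and 361 lower over all tested genes.

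Sgms2 was called in every alternative that was run. Elovl6 lost its call without either knockout vehicle library (adjusted p = 0.0847 and 0.0858) or either FA+TPA library (0.13 and 0.129). The call of Elovl6 was also lost on all libraries in the fit with 1 mean per group. Over all alternatives the log2 difference ranged from 0.59 to 0.68 for Sgms2 and from 0.56 to 0.90 for Elovl6. Without either wild-type vehicle library 1 member was called lower, Sdr9c7 (-0.40, adjusted p = 0.02) without wild-type vehicle 1 and Aloxe3 (-0.39, adjusted p = 0.0187) without wild-type vehicle 2. With all libraries those values were -0.31 ± 0.10 (adjusted p = 0.131) and -0.27 ± 0.10 (adjusted p = 0.216).

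The promoter of Acer2 is shown as that of the genotype difference that held in every alternative for vehicle skin. It lies at chr4:86874164-86874463 on the plus strand of GRCm38.p6 in RefSeq, 5′ to 3′, with GC boxes in capitals.
Acer2: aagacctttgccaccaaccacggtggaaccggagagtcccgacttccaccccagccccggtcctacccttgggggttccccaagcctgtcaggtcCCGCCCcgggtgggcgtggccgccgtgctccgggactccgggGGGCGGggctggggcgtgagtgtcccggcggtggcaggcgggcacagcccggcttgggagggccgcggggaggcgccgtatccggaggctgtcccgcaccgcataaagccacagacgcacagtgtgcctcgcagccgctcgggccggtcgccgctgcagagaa
It holds 2 GC boxes and no match to the AP-1 site, the glucocorticoid half-site or the TATA box spelled out above. Of the other genes called in vehicle skin, Cers4, Cers5 and Hsd17b12 also had a GC box in a window, and Elovl6 had none. No window was found for Fa2h. Over all windows 35.7% held a GC box.

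Other sphingolipid genes were read as a companion list of 24, of which 22 were tested. TPA raised 8 and lowered 8 of them, and FA+TPA raised 6 and lowered 0 against TPA. Over all tested genes those shares were 23.2% and 22.8% for TPA and 5.71% and 4.31% for FA+TPA against TPA. Gba2, the non-lysosomal glucosylceramidase, had 92.8 to 112 CPM in vehicle and 231 and 173 CPM after TPA, wild type first, and rose by 0.97 ± 0.09 (adjusted p = 1.31e-05) without overlap of the groups. Sgpp2, a sphingosine-phosphate phosphatase, rose by 3.02 ± 0.33 (adjusted p = 3.68e-05), from 1.97 to 6.86 CPM to 26.6 and 26.8 CPM. No companion was called for genotype in vehicle skin, where 1.44% of all tested genes were higher and 0.727% lower. At an unadjusted p under 0.05 there were 2 of the 22, against 11.5% of all genes.

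The falls after TPA were led by Acer3, a further alkaline ceramidase, which had 114, 136, 121 and 108 CPM in vehicle and 36.2 and 41.0 CPM after TPA in wild type and knockout. It fell by 1.63 on the log2 scale (adjusted p = 1.9e-06). With FA+TPA it had 68.9 and 69.5 CPM, between those groups, and was higher than with TPA alone by 0.84 ± 0.13 (adjusted p = 0.00203). Cerk, ceramide kinase, and Sgpp1 fell with TPA by 0.55 (adjusted p = 0.000775) and 0.47 (0.00173). Smpd3, a neutral sphingomyelinase, and Gba2 were higher with FA+TPA than with TPA by 0.63 ± 0.13 (adjusted p = 0.0109) and 0.48 ± 0.11 (0.0176). The comparisons with TPA and of FA+TPA with TPA share the TPA libraries, so opposite signs between them are not separate results.

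Of 20 further barrier lipid genes, 19 were tested, and TPA raised 7 and lowered 5, where 23.2% of all genes were higher and 22.8% lower. Tgm1, the transglutaminase that ties the envelope together, rose by 1.16 ± 0.08 (adjusted p = 1.55e-06), Ephx3, an epoxide hydrolase of the linoleate pathway, by 0.89 ± 0.08 (1.02e-05) and Sult2b1, the cholesterol sulfotransferase, by 0.99 ± 0.10 (2.99e-05). The lowest p-values among the falls were those of the acyl-CoA synthetase Acsbg1 (-0.83 ± 0.11, adjusted p = 0.000131), the carboxylesterase Ces1d (-1.53 ± 0.26, 0.000665) and the epidermal lipase Lipn (-0.91 ± 0.16, 0.00111). FA+TPA against TPA raised 5 and lowered 0, where 5.71% and 4.31% of all genes were, led by Lipn (1.34 ± 0.18, adjusted p = 0.00134), Acsbg1 (0.83 ± 0.12, 0.00186) and a further lipase, Lipm (0.60 ± 0.13, 0.0145). Lipn had 39.0 to 55.9 CPM in vehicle, 30.6 and 21.4 CPM after TPA, and 69.5 and 61.6 CPM with FA.

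In vehicle skin 5 of those 19 were higher in knockout and 0 lower, where 1.44% and 0.727% of all genes were. They are named here after their values were seen. Elovl5, an elongase of polyunsaturated chains, had 123 and 177 CPM in wild type and 333 and 442 CPM in knockout (1.37 ± 0.19, adjusted p = 0.00691). Fasn, fatty acid synthase, had 620 and 787 CPM against 1120 and 1280 CPM (0.77 ± 0.16, adjusted p = 0.0352). Elovl3, which is also among the sebocyte markers, Hacd2 and Ces1d differed by 1.37 ± 0.27 (adjusted p = 0.0318), 0.82 ± 0.17 (0.0327) and 1.69 ± 0.22 (0.00451). The groups did not overlap for any of the 5.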

How the data were processed

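The submitters' processing notes name Trim Galore, STAR, HTSeq and the build mm10. Their versions, the annotation release and the strand setting are not given in the sources used. The authors deposited raw counts per Ensembl gene, 1 file per library. Symbols, coordinates and exon lengths came from GENCODE M21, which matched 54165 of 54232 identifiers. The 34 genes and the companion and marker lists were chosen with earlier results of these data known. Named companions were up to 3 per list and direction with the smallest p for TPA against vehicle and FA+TPA against TPA; 1 gene that this rule takes is not reported here.

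Tests on the counts used edgeR 4.0.16 under R 4.3.3 (quasi-likelihood F test, TMM, filterByExpr with treatment as group and minimum count 10, Benjamini-Hochberg adjustment over 19251 genes, threshold 0.05). Treatments, and genotype over all treatments, were fitted additively on all 8 libraries (4 residual degrees of freedom). Genotype within vehicle and the interactions used 1 mean per group (2 residual degrees of freedom, given by the vehicle pairs), single treated libraries being assumed to vary like those pairs. Each SE was derived as |log2 fold change|/sqrt(F). CPM used TMM factors of 0.859 to 1.10. The fits were tested on simulated counts. Vehicle replicates differed by more than sampling noise (chi-square per degree of freedom 27.6 in wild type, 12.4 in knockout). Alternatives were RLE and library-size scaling, no count filter, a minimum count of 50, DESeq2 1.42.0, limma-voom (limma 3.58.1), removal of the most abundant transcript, 1 mean per group, each library left out, and vehicle libraries fitted alone, with a replicate block or without.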

Additional observations from a re-analysis of the deposited data

How the results depend on the processing

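No called member changed sign in any alternative. Calls made with all libraries held in every alternative for 11 of 22 members for TPA against vehicle, 2 of 6 for FA+TPA against TPA, 13 of 22 for FA+TPA against vehicle, 1 of 6 for genotype in vehicle skin and 1 of 2 for genotype over all treatments. Members without a call changed sign in at least 1 alternative in 8, 14, 6, 15 and 8 cases in those comparisons, and in 11 and 12 for the TPA and FA interactions.

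With no low-count filter, FA+TPA against TPA called 8 members higher and 2 lower, genotype over all treatments 10 higher and 1 lower with 1552 genes in all in place of 690, genotype in vehicle skin 10 higher, and the TPA interaction 21 genes in place of 1. With 1 mean per group, FA+TPA against TPA called 2 lower and genotype over all treatments 4 higher with 450 genes. Library size alone gave 9 members higher for genotype over all treatments and 3 genes for the TPA interaction. A minimum count of 50 gave 1 member and 219 genes in place of 6 and 418 for genotype in vehicle skin, and 0 genes for the TPA interaction. DESeq2 gave 4 members for genotype over all treatments, 272 genes for genotype in vehicle skin, and 11 and 7 genes for the interactions with TPA and FA, where limma-voom gave 0 for TPA. The cause of these shifts was not tested.

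With 1 library left out, members called for TPA ranged from 9 to 15 higher and 2 to 10 lower, with 6049 to 8810 genes. For FA+TPA against TPA they ranged from 2 to 8 higher and 0 to 1 lower, with 571 to 2367 genes. For FA+TPA against vehicle they ranged from 1 to 7 lower, with 2652 to 6051 genes. For genotype over all treatments they ranged from 1 to 9 higher and 0 to 1 lower, with 288 to 630 genes. For genotype in vehicle skin they ranged from 5 to 14 higher and 0 to 1 lower, with 440 to 1465 genes. The TPA interaction had 0 to 11 lower and 6 to 365 genes, and the FA interaction 2 higher throughout and 51 to 183 genes; leaving out a TPA library for the first, or any treated library for the second, gives no value.

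The vehicle libraries share replicate numbers in the labels, but nothing says that a number marks a shared animal or day, and deviations of same-numbered libraries correlated at -0.122 across genes. The fit of vehicle libraries alone with a replicate block called 10 members higher and 847 genes. The crossed pairing, added after seeing the data, called 12 members higher and 1080 genes. Each treated group holds 1 library, so the spread of treated skin within a genotype is unknown.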
